A study of Homo sapiens with 4 samples.

Results

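Chromatin accessibility was examined at 8 genes that encode the transcription factors by which a hepatocyte keeps its identity, HNF4A, FOXA1, FOXA2, FOXA3, CEBPA, ONECUT1, NR5A2 and PROX1. Each gene was taken by its GENCODE body on hg38 with 10 kb on either side, and every ATAC-seq peak that overlapped such a window was counted. Peaks of different libraries that overlapped were joined into 1 region, which gave 41 regions at the 8 genes out of 80551 regions in the whole data set. These were 12 promoter regions (overlapping 1 kb upstream to 100 bp downstream of an annotated start of that gene), 15 internal regions within the gene body and 14 flanking regions outside it.

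The cells were HepG2, a wild-type human line with epithelial features that the study describes as hepatocellular carcinoma, and each library came from 50000 cells. The tazemetostat group (2 libraries) was given 5 µM tazemetostat for 48 h, and the control group (2 libraries) was labelled untreated. Tazemetostat inhibits EZH2, the enzyme of polycomb repressive complex 2 that methylates lysine 27 of histone H3 at silenced genes, and it was dissolved in DMSO; whether the controls received the solvent is not said in their treatment label. Cells were exposed to DNase before transposition by the Omni-ATAC protocol, which inserts sequencing adapters into open chromatin. The published methods name only the tazemetostat-treated cells at the DNase step. The labels do not say that the replicates were separate cultures, so the tests below measure the spread between libraries, which may be technical. All cells were 1 line, and nothing here describes normal hepatocytes.

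Many of these factors bind and regulate one another's genes as well as the genes of liver function. HNF4A is a nuclear receptor needed for mature hepatocyte expression, and it is transcribed from a pair of promoters: P1 gives the forms of adult liver, and P2, far upstream, gives forms seen in fetal liver, pancreas and gut. FOXA1, FOXA2 and FOXA3 are forkhead pioneer factors that can bind nucleosomal DNA, CEBPA is a leucine zipper factor of the quiescent hepatocyte, ONECUT1 (HNF6) is a cut-homeodomain factor of the liver and bile ducts, NR5A2 (LRH-1) is a nuclear receptor of bile acid and cholesterol metabolism, and PROX1 is a homeodomain factor required for the migration of early hepatoblasts.

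The regions that carry the results below are shown as hg38 reference sequence on the plus strand. The first group holds the central bases of the 4 regions that were called in each tazemetostat library and in no control, at HNF4A (chr20:44419319-44419618), ONECUT1 (chr15:52785176-52785475) and NR5A2 (chr1:200116301-200116598 and chr1:200128116-200128411). All of them lie in introns. Capitals mark matches to the letters TTGCNNAA (CEBP), CAAAGTNCA (HNF4), TGTTTAC (FOXA), TTAATNATT (HNF1), ATNGATT (ONECUT) or CAAGGTCA (NR5A2), searched on both strands, where N is any base. These 4 sequences held 3 matches in all, each of them to the CEBP letters and each at NR5A2.
HNF4A intron: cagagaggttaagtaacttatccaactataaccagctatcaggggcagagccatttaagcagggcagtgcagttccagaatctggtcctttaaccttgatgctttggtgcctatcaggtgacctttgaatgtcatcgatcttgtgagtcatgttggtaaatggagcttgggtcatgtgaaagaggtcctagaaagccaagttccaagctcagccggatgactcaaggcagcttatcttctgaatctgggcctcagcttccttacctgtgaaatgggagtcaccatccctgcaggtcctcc
ONECUT1 intron: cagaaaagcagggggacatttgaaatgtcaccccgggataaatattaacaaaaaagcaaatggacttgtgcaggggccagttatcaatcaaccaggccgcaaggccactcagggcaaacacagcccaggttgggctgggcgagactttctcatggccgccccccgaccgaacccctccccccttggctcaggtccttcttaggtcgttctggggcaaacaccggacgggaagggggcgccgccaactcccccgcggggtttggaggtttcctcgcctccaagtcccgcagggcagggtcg
NR5A2 intron, upstream: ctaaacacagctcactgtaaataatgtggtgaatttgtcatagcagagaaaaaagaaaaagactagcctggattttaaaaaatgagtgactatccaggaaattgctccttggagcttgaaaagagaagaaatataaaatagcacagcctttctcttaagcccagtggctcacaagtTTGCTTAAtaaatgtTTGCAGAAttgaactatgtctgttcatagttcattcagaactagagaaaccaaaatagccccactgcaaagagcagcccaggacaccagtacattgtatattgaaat
NR5A2 intron, downstream: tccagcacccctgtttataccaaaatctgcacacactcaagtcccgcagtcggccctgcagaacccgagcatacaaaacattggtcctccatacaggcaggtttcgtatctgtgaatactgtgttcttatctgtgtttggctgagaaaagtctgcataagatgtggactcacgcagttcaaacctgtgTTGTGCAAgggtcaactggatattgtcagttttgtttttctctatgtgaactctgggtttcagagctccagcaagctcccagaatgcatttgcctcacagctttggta

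The second group shows the centre of the region with the highest tag count at any of the 8 genes, in the HNF4A intron ahead of P1 (chr20:44394578-44394877), and the bases just upstream of the P2 start (chr20:44355449-44355698), the P1 start (chr20:44400989-44401238) and the NR5A2 start (chr1:200027364-200027613). Capitals have the same meaning. The HNF4A intron sequence held 2 CEBP matches, P2 held an ONECUT match and the NR5A2 promoter an HNF1 match, while the stretch upstream of P1 held none of the 6 sets of letters. A match is only a run of letters and was not tested as a binding site.
HNF4A intron ahead of P1: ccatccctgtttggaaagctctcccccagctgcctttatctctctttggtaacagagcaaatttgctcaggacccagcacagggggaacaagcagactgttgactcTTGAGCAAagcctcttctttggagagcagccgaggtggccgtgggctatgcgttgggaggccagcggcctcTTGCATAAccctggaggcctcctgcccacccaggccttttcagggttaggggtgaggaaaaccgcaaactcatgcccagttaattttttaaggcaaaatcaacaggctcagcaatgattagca
HNF4A P2: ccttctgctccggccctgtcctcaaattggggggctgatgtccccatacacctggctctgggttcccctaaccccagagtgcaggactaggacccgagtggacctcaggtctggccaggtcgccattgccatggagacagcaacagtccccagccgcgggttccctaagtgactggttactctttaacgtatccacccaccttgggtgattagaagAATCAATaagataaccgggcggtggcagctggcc
HNF4A P1: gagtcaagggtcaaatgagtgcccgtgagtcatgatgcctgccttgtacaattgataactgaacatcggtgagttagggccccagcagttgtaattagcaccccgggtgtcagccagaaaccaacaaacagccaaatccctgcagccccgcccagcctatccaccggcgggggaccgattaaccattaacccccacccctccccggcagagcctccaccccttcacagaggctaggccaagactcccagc
NR5A2 promoter: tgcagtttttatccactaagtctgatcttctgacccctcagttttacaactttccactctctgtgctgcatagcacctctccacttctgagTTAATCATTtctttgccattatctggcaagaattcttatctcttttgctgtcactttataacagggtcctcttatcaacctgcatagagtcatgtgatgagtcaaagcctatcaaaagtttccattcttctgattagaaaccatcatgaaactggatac

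In the order control 1, control 2, tazemetostat 1, tazemetostat 2, the libraries held 17.2, 23.8, 19.8 and 26.6 M mapped tags and listed 26133, 34768, 55313 and 54157 peaks. Every value below is in that order unless it is named. The tazemetostat libraries thus had more peaks across the whole genome, and the caller's fragment length was 200 bp for both controls and 144 bp for both tazemetostat libraries, so that this setting and the treatment cannot be told apart. Promoter peaks were also read at marker genes: 7 of 10 hepatocyte marker genes had one in all 4 libraries, against 34.9% of all protein-coding genes. The exceptions were ALB and FGB with none in any library and AFP with one in control 2 and tazemetostat 2. Of the markers of other cell types given here, PDGFRB (fibroblast or stellate) and CD68 (blood) had a promoter region in every library, and COL1A1, COL3A1, PECAM1, CDH5, VWF, PTPRC and CD3E had none. Their part in the results was not tested.

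The question asked of these genes was whether their chromatin was more accessible after EZH2 inhibition. The 8 windows held 16, 20, 35 and 31 peaks, a mean of 18 ± 2.83 (SD, n = 2) against 33 ± 2.83. The ratio of 1.83 lay next to that of all peaks in the libraries, 1.8, and the two-sided exact permutation p was 0.33, the smallest that 2 against 2 allows. Summed over the windows, the normalised tag count (tags within a peak per 10 M mapped tags) was 393.72, 592.12, 1172.3 and 945.56. The groups did not overlap, with means of 493 ± 140 and 1059 ± 160, a ratio of 2.15 and an exact permutation p of 0.33, and the same sum over all peaks of the libraries had a ratio of 2.13. At the hepatocyte factor genes the number of peaks and the summed signal thus differed by about the ratio seen over the whole peak lists.

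By the libraries in which they were called, 14 of the 41 regions were shared by all 4 libraries, 4 were called in both tazemetostat libraries and no control, 0 were called in both controls and no tazemetostat library, and 23 had any other pattern. Over all regions of the data set 20.4% were shared, 13.7% were tazemetostat-only and 0.449% were control-only. The tazemetostat-only count at these genes was near that background, and the shared regions made up a larger part of the member regions than of all regions; no test was made of either. Without control 2 the number of tazemetostat-only regions was 9, without tazemetostat 1 it was 9 and without tazemetostat 2 it was 14, since fewer libraries then had to hold or lack a peak. The number was 1 when every library was cut to its 26133 peaks of highest tag count, and 2 with peaks of a local fold of at least 8. Those 2 were an NR5A2 intron (chr1:200116298-200116601) and the FOXA3 promoter region. The latter was called in all 4 libraries without the filter, and its control folds of 7.11 and 6.36 fell under it. Of the 23 remaining regions 10 were seen in tazemetostat 1 alone, 5 in tazemetostat 2 alone, 5 in all but control 1, 2 in all but control 2, and 1 in control 2 and tazemetostat 2.

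**Figure D1:**
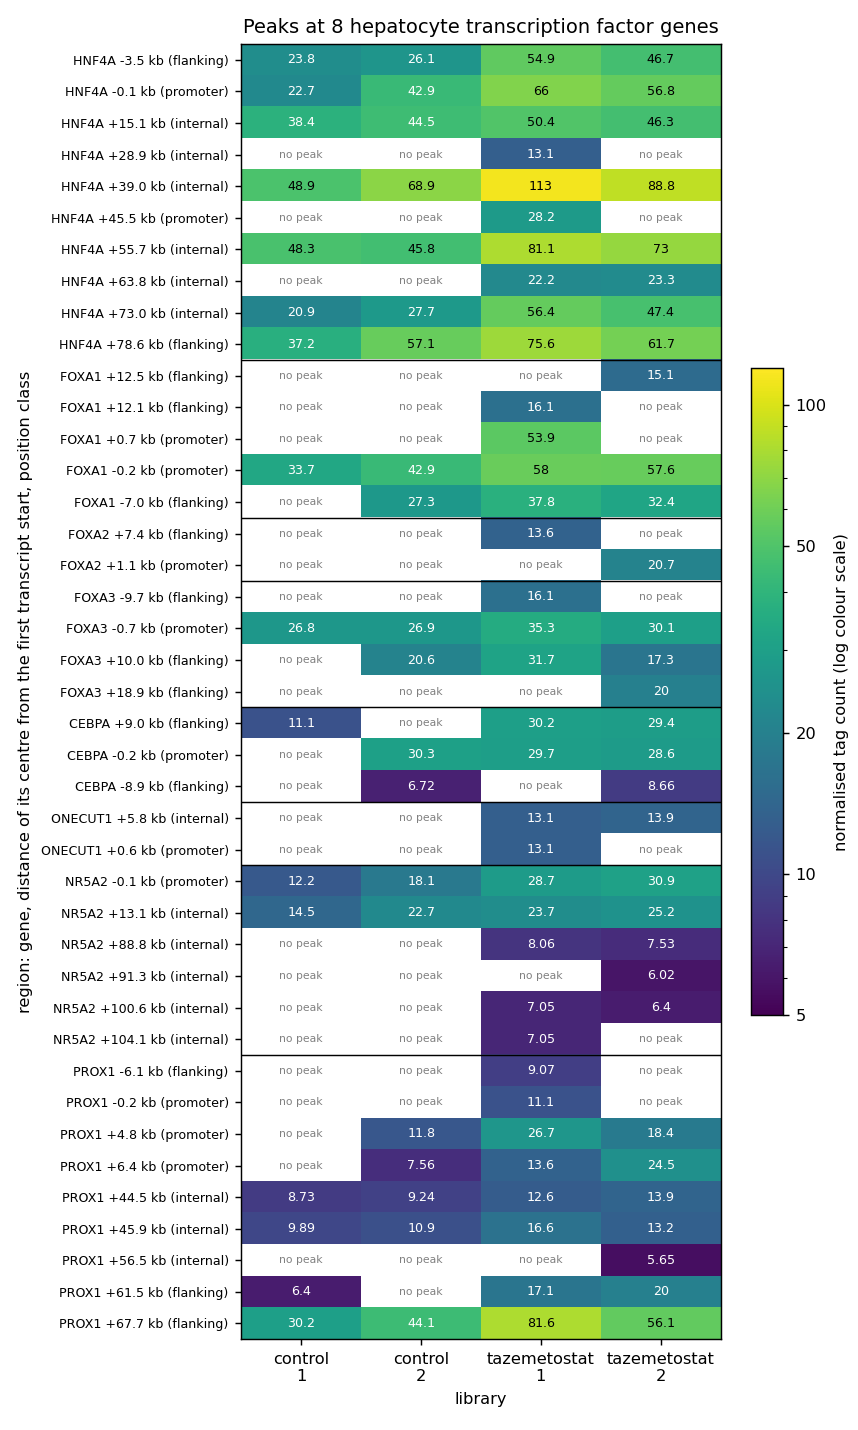
Normalised tag count (log colour scale, with the value printed in each cell) of the 41 regions at the 8 genes in each of the 4 libraries; regions are listed by gene and by the distance of their centre from the first transcript start in kb, negative being upstream, and white cells are libraries with no peak. The 14 regions filled in every library include 7 at HNF4A, and 4 regions are filled for tazemetostat alone, in both its libraries.

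The patterns were then read by position. Of the 12 promoter regions, 4 were shared and 8 were called in some libraries only. Among the 15 internal regions 7 were shared and 4 were tazemetostat-only, so that every tazemetostat-only region lay inside a gene body and none at a promoter. The 14 flanking regions comprised 3 shared and 11 partial ones. The matching shares by position over all regions of the data set are not given here. The placement of the tazemetostat-only regions was not tested and cannot be read as a trait of these genes. Counted by gene, HNF4A, FOXA1, FOXA3 and NR5A2 (4 of 8) had a promoter region called in all 4 libraries, against 34.9% of the 20033 protein-coding genes, and all 8 had a promoter region in at least 1 library.

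HNF4A (chr20:44355699-44432845, plus strand) held 10 regions, the most of any of the genes, and 7 of them were shared. Its window was 97.15 kb long, where the windows ran from 22.6 kb (CEBPA) to 169.8 kb (NR5A2). The counts of regions by gene were not adjusted for this length. P2 was covered by a region at chr20:44355289-44355914, centred at -98 bp from the start, where the normalised tag count was 22.7, 42.9, 66.0 and 56.8. The region also counts as a promoter of R3HDML-AS1, a neighbouring long noncoding gene. The groups did not overlap (32.8 ± 14.3 against 61.4 ± 6.51), and the log2 change was 0.95 (SE 0.324, limma adjusted p = 0.0289). The change at P2 was 0.50 without control 1, where the call was lost, and 1.39 without control 2. The peak was also longer, at 388 and 564 bp in the controls and 625 and 616 bp under tazemetostat, and the change per kilobase of peak was 0.56 with a limma adjusted p of 0.0382.

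P1, the promoter of the adult liver forms, was missing from most of the peak lists. A region at chr20:44400994-44401375 was called in tazemetostat 1 alone, with a tag count of 28.2 from 56 tags over 381 bp. The other 3 libraries listed no peak there. A peak list gives no value where a peak was not called, and the caller kept only positions with at least 4-fold more tags than the surrounding 10 kb, so the absence of P1 from 3 lists is not a measured low level. Where it was called, its fold over that local background was 5.04.

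The highest tag count at any of the 8 genes was found between the promoters of HNF4A, in an intron at chr20:44394320-44395137, centred at -6511 bp from the nearest P1 start; the region also lies within the antisense gene HNF4A-AS1. It had 48.9, 68.9, 112.9 and 88.8 tags per 10 M. Both tazemetostat values were above both control values (58.9 ± 14.1 against 101 ± 17.0, log2 change 0.78, SE 0.306, limma adjusted p = 0.0467). This call was lost with the replicate number as a block (adjusted p = 0.0684). Further shared regions were a flanking one that lies at a further start of R3HDML-AS1 (chr20:44351920-44352532), with 23.8, 26.1, 54.9 and 46.7, and an intronic one at chr20:44428361-44429009 with 20.9, 27.7, 56.4 and 47.4. Their log2 changes of 0.99 (SE 0.296, limma adjusted p = 0.0181) and 1.07 (SE 0.301, limma adjusted p = 0.0152) were the largest of the HNF4A regions.

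The other shared HNF4A regions did not pass the test. An intronic region 15124 bp from the P2 start had 38.4, 44.5, 50.4 and 46.3, a log2 change of 0.22 (SE 0.295, limma adjusted p = 0.504). The regions at chr20:44411066-44411707 and chr20:44433976-44434633 had log2 changes of 0.70 and 0.56 with limma adjusted p-values of 0.0570 and 0.126. The tazemetostat-only region of HNF4A, at chr20:44419230-44419705 in an intron, held 22.2 and 23.3 tags per 10 M from 44 and 62 tags (95% exact Poisson intervals 16.1 to 29.8 and 17.9 to 29.9, counting error only). At that density the control libraries would have held 25.3 and 35.0 tags in 300 bp, above their calling thresholds of 14 and 16 tags, but the local filter applies as well and no local value is listed where there is no peak.

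**Figure D2:**
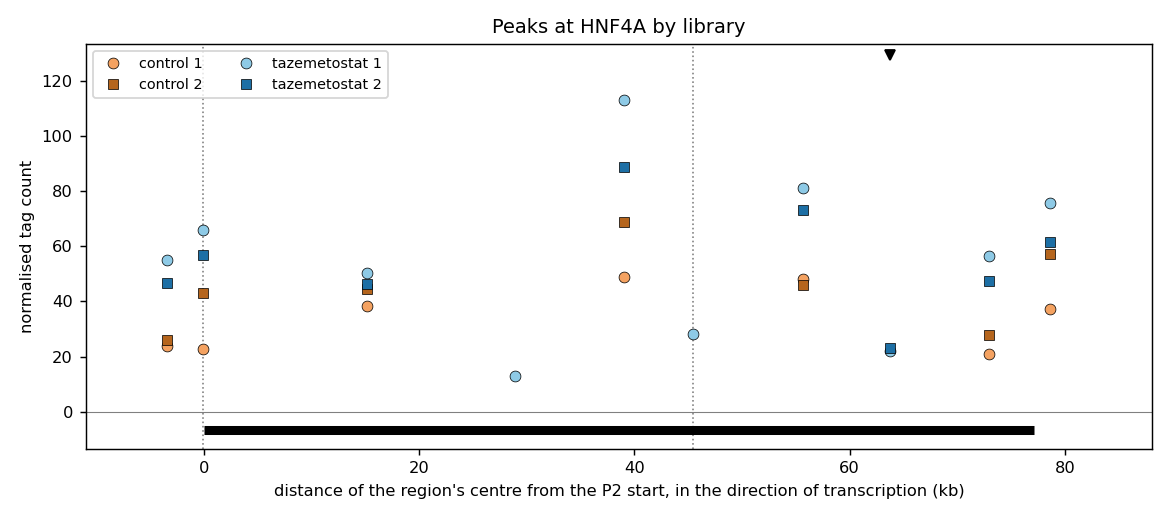
Normalised tag count of each HNF4A peak (linear axis) against the distance of its region's centre from the P2 start in kb, 1 point per library; the black bar is the gene body, dotted lines are the P2 and P1 regions and the triangle is the tazemetostat-only region. The highest points, 113 and 88.8 in the tazemetostat libraries, stand ahead of P1, and at P1 itself only tazemetostat 1 has a point.

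The 3 forkhead genes differed in how much of them was called. FOXA1 (chr14:37589552-37596059, minus strand) had a shared promoter region at chr14:37595936-37596498 with 33.7, 42.9, 58.0 and 57.6. The tazemetostat values lay close together and above both controls (38.3 ± 6.51 against 57.8 ± 0.283), and the log2 change of 0.59 (SE 0.297) did not pass the test (limma adjusted p = 0.0966). A further start of FOXA1, in an exon of the gene, had a region at chr14:37595072-37595570 in tazemetostat 1 alone, with 53.9, which is also a promoter of the neighbouring gene TTC6. The strongest region outside its promoters, upstream at chr14:37602771-37603295, was listed in control 2 and in both tazemetostat libraries with 27.3, 37.8 and 32.4.

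FOXA2 (chr20:22580998-22585455, minus strand), the forkhead factor of early endoderm, had no peak in either control library. A promoter region in an exon at chr20:22584241-22584541 was called in tazemetostat 2 with 20.7, and a downstream region at chr20:22577892-22578192, within LINC00261, in tazemetostat 1 with 13.6. Each was 300 bp long and close to the lowest local fold that the caller kept, at 4.2 and 4.32. The tazemetostat libraries thus did not share a FOXA2 peak.

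FOXA3 (chr19:45863989-45873797, plus strand), the forkhead factor of the mature liver, had a shared region at chr19:45863033-45863603, centred at -671 bp from its start, which is also a promoter of the neighbouring gene SYMPK. Its tag counts of 26.8, 26.9, 35.3 and 30.1 gave a log2 change of 0.27 (SE 0.295, limma adjusted p = 0.410), and the 2 genes could not be told apart there. A downstream region at chr19:45873701-45874195 had 20.6 in control 2 and 31.7 and 17.3 under tazemetostat, so that the control value lay between the tazemetostat values. The other FOXA3 regions were seen in a single tazemetostat library each, with 16.1 and 20.

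CEBPA (chr19:33299934-33302534, minus strand) had nearly equal promoter tag counts in the libraries that called it, over peaks of unlike length. The region at chr19:33302457-33303055, shared with the divergent noncoding gene CEBPA-DT, had 30.3 in control 2 and 29.7 and 28.6 in the tazemetostat libraries and was not called in control 1. Per kilobase of peak the region had 55.9, 60.4 and 75.3 in the same order, at lengths of 542, 492 and 380 bp. Its local folds were 4.08, 4.23 and 5.15, near the minimum of 4. Downstream, the region at chr19:33293254-33293748 had 11.1 in control 1, none listed in control 2, and 30.2 and 29.4 under tazemetostat. A weak upstream region was listed in control 2 and tazemetostat 2 with 6.72 and 8.66.

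ONECUT1 (chr15:52755053-52791078, minus strand) was the other gene with no peak in either control. Its tazemetostat-only intronic region at chr15:52785108-52785487 had 13.1 and 13.9, from 26 and 37 tags (95% exact Poisson intervals 8.56 to 19.2 and 9.81 to 19.2). At the same density 300 bp of the controls would have held 20.7 and 28.7 tags, above the thresholds of 14 and 16. The local filter applies here too, and no local value is listed for the controls. The region's own local folds were 4.67 and 5.36, near the minimum of 4, so its absence from the controls is not a measured low level. The promoter region at chr15:52790319-52790619 was called in tazemetostat 1 alone with 13.1.

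NR5A2 (chr1:200027614-200177420, plus strand) had a shared promoter region that passed the test, as HNF4A P2 did. At chr1:200027169-200027787 the tag counts were 12.2, 18.1, 28.7 and 30.9. The tazemetostat values exceeded both controls (15.2 ± 4.17 against 29.8 ± 1.56, log2 change 0.96, SE 0.304, limma adjusted p = 0.0231). The peak was 378 and 464 bp long in the controls, 553 and 618 bp under tazemetostat. An intronic region 13117 bp from the start, at chr1:200040443-200041020, had 14.5, 22.7, 23.7 and 25.2, with a log2 change of 0.41 (SE 0.307, limma adjusted p = 0.242).

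Both tazemetostat-only regions of NR5A2 were weak in tags and high in local fold. The upstream one, at chr1:200116298-200116601, had 8.06 and 7.53 from 16 and 20 tags (95% exact Poisson intervals 4.61 to 13.1 and 4.6 to 11.6), at folds of 11.76 and 12.44. The downstream one, at chr1:200128111-200128416, had 7.05 and 6.4 from 14 and 17 tags (3.86 to 11.8 and 3.73 to 10.2), at folds of 7.94 and 8.33. At equal density control 1 would have held 13.4 and 11.6 tags in 300 bp, under its threshold of 14, and control 2 would have held 18.6 and 16.0 against a threshold of 16. Control 1 did list a PROX1 peak with 11 tags over 300 bp, so this threshold was not a strict floor for listed peaks. Whether the missing peaks in control 1 were informative at this depth was not tested.

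PROX1 (chr1:213983181-214041510, plus strand) had 3 promoter regions and 9 regions in all. The first start was covered in tazemetostat 1 alone (chr1:213982840-213983140, 11.1). At the later starts, the region at chr1:213987650-213988247 had 11.8 in control 2 and 26.7 and 18.4 under tazemetostat, and that at chr1:213989346-213989911 had 7.56 in control 2 and 13.6 and 24.5 under tazemetostat. Neither was called in control 1, and both are also promoters of the antisense gene PROX1-AS1, from which ATAC-seq cannot separate PROX1.

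The strongest PROX1 region lay downstream of the gene at chr1:214050385-214051398. It had 30.2, 44.1, 81.6 and 56.1, with no overlap of the groups (37.2 ± 9.83 against 68.9 ± 18.0), a log2 change of 0.87 (SE 0.314, limma adjusted p = 0.0345) and a change per kilobase of 0.69 (limma adjusted p = 0.0129). Its fold over the local background went the other way, at 10.41 and 9.4 in the controls and 5.67 and 5.27 under tazemetostat. Shared intronic regions, 44547 and 45867 bp from the first start, had log2 changes of 0.51 and 0.47, which did not pass the test (limma adjusted p = 0.136 and 0.168). The highest local fold of any peak at the 8 genes, 22.17, was in tazemetostat 1 at chr1:214044410-214044985, where the tag counts were 6.4 in control 1 and 17.1 and 20 under tazemetostat.

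**Figure D3:**
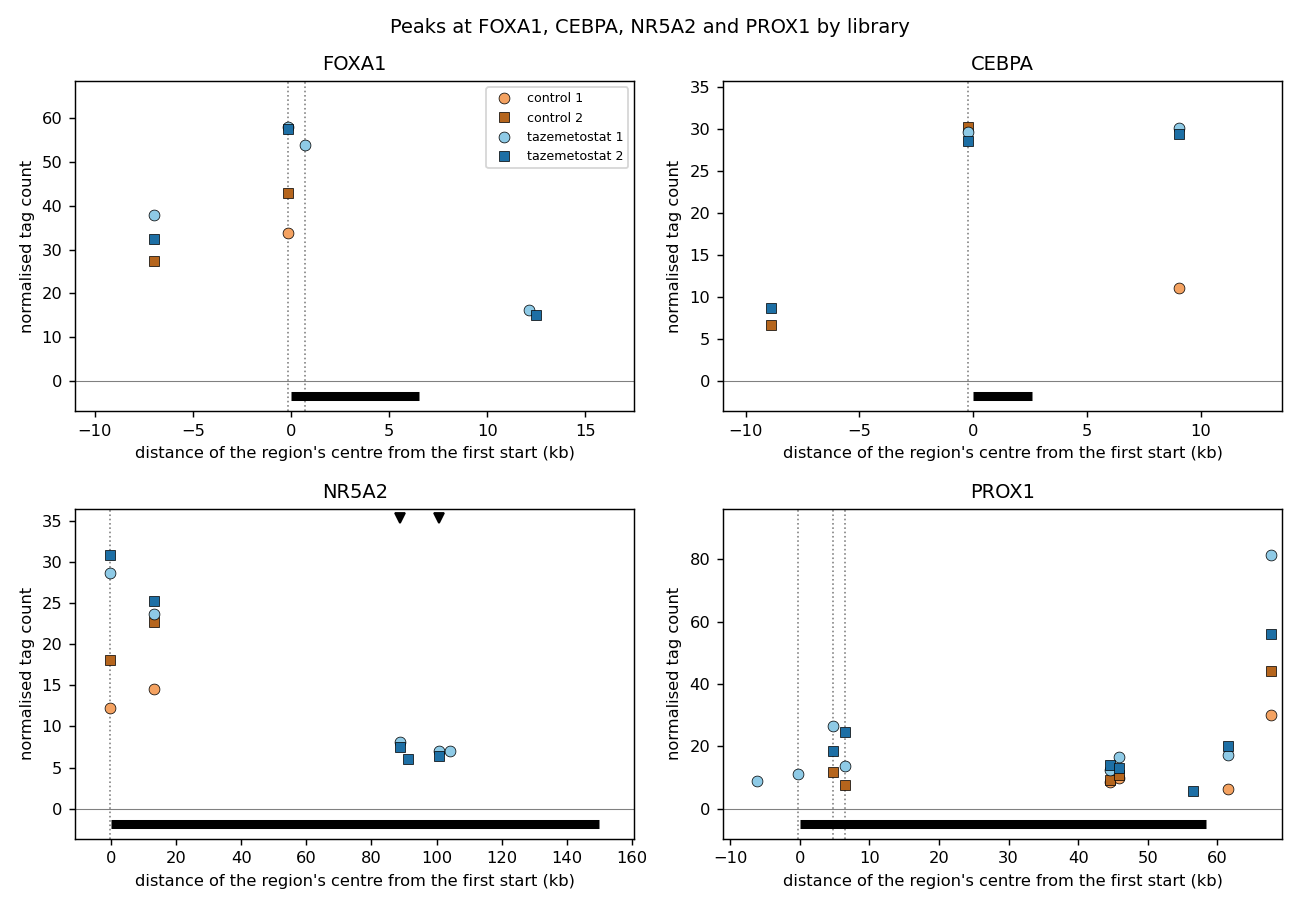
Normalised tag count of each peak at FOXA1, CEBPA, NR5A2 and PROX1 (linear axes that differ between panels) against the distance of its region's centre from the first transcript start in kb, in the direction of transcription, 1 point per library; black bars are gene bodies, dotted lines promoter regions and triangles tazemetostat-only regions. The 3 CEBPA promoter points lie between 28.6 and 30.3, and the PROX1 region downstream of the gene reaches 81.6.

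Across the 8 genes, 14 regions had exactly 1 peak in every library and could be tested. Both tazemetostat values lay above both control values in 14 of the 14, as they did in 81.6% of the 15383 regions tested in the data set. limma called 6 of the 14 higher under tazemetostat (7 at an unadjusted p under 0.05), against 42.7% of all tested regions. It called 0 lower (0 at an unadjusted p under 0.05), against 0.247% of all. The 6 were the P2 promoter, the region ahead of P1, the flanking region at chr20:44351920-44352532 and the intronic region at chr20:44428361-44429009 of HNF4A, the NR5A2 promoter, and the downstream region of PROX1. The median log2 change of the 14 was 0.64, from 0.22 to 1.07, and that of all tested regions was 0.70 (-1.42 to 2.22), so the member regions lay close to the middle of the whole table.

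The calls depended on how the libraries were scaled. With each library centred on its median, the median log2 change of the 14 regions was -0.12 against -0.06 for all regions, 6 of the 14 were above 0, and limma called 0 of them higher; no region of the data set was called after centring. Per kilobase of peak the median change was 0.41 for the members and 0.41 for all, and 2 of the 14 were called, HNF4A P2 and the PROX1 downstream region. None of the 6 calls held without control 1, without tazemetostat 1 or without tazemetostat 2 (0 of the 14 called higher in each), and all 6 held without control 2 (7 of the 14 called). The regions open to the test then also changed: without control 1 there were 19 at these genes, of which 1 was called, the PROX1 promoter region at chr1:213989346-213989911, outside the 14. Relative to the general shift, no region at these genes was thus shown to rise or fall.

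**Figure D4:**
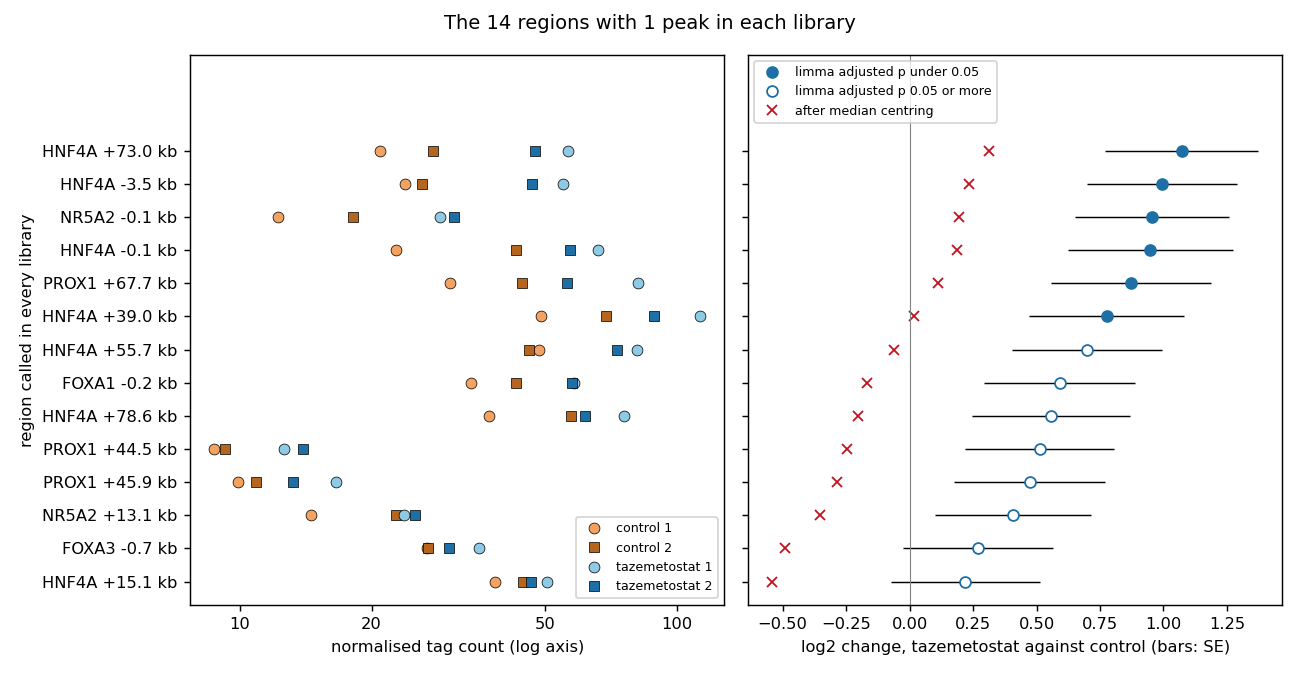
Left, the normalised tag counts (log axis) of the 14 regions with a peak in each library, named by gene and distance from the first start in kb. Right, their log2 change with its SE from limma, filled where the adjusted p was under 0.05, and the value after median centring as a cross; all 14 uncentred values are above 0 and 8 of the 14 crosses are below 0.

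Levels of different promoters were compared as tags per kilobase of peak, since peak lengths differed. HepG2 is known to carry extra copies of chromosomes 14 and 20, which hold FOXA1, FOXA2 and HNF4A, and the values were not adjusted for copy number. In the controls FOXA1 had the highest density (91.5 ± 4.27 tags per 10 M per kb), followed by HNF4A P2 (67.3 ± 12.4), FOXA3 (49.7 ± 1.49) and NR5A2 (35.6 ± 4.76), among the 4 promoters called in both. Under tazemetostat the order was FOXA1 (108 ± 0.0707), HNF4A P2 (98.9 ± 9.47), CEBPA (67.8 ± 10.5), FOXA3 (59.9 ± 7.04), NR5A2 (51.0 ± 1.34), and the later PROX1 starts (44.4 ± 7.35 and 36.4 ± 10.6). The tazemetostat differences from FOXA1 to HNF4A, from CEBPA to FOXA3, from NR5A2 to the first of these PROX1 starts and between both PROX1 starts were within 1 SD of one of the pair, so these neighbours were not separated. An SD from 2 libraries is only a rough guide. The order of the other neighbours was not tested and is not shown to be a difference either. The promoters seen in a single library had densities of 108 for the exonic start of FOXA1, 74.0 for HNF4A P1, 69.0 for FOXA2, 43.7 for ONECUT1 and 37.0 for the first PROX1 start.

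At FOXA1 a high density did not go with a high local fold. Among the promoters called in both libraries of a group, the FOXA1 promoter was the densest. Its folds were only 4.09, 4.13, 4.28 and 4.41, whereas the NR5A2 promoter had 8.9, 11.1, 10.68 and 6.92. HNF4A P2 stood at 4.21, 5.13, 4.46 and 5.01, and FOXA3 at 7.11, 6.36, 8.52 and 8.01. Over all member peaks the median fold was 6.42, 5.08, 5.0 and 5.2, against 5.92, 5.65, 6.09 and 5.75 over every peak of the libraries. Member peaks with a fold under 5, just inside the minimum of 4, numbered 4, 9, 17 and 11 (25.0, 45, 48.6 and 35.5%), where the libraries as a whole had 33.3, 36.6, 31.3 and 35.1%. Member peaks had a higher median tag count than the libraries as a whole, 23.2, 27.1, 26.7 and 24.5 against 12.2, 12.2, 14.6 and 12.8.

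**Figure D5:**
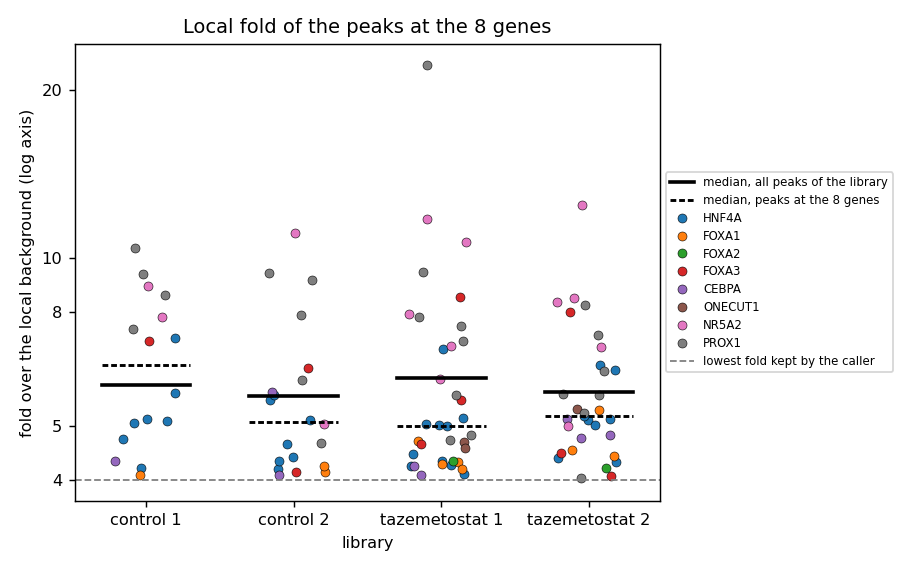
Fold over the local background (log axis) of every peak at the 8 genes in each library, coloured by gene and spread sideways for legibility; solid bars are medians of all peaks of the library, short-dashed bars medians of the peaks at the 8 genes, and the dashed line is the lowest fold that the caller kept, 4. FOXA1 peaks lie between 4.09 and 5.35, and the highest point, 22.17, is a PROX1 peak of tazemetostat 1.

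Other genes of the hepatocyte network were read in the same way. Of 18 such genes (nuclear receptors, homeodomain, GATA and leucine zipper factors), 10 had a promoter region in all 4 libraries (34.9% of all coding genes did), 2 had one in both tazemetostat libraries and no control, and 0 the reverse. The 2 were GATA6, a zinc finger factor of endoderm, and ATF5, a stress-responsive leucine zipper factor. The matching shares over all coding genes are not given here, so neither count can be read as a trait of the network. The windows of the 18 genes held 94 regions, of which 33 were shared, 19 tazemetostat-only and 0 control-only, where 20.4%, 13.7% and 0.449% of all regions were. Among 6308 coding genes whose promoter was called once in every library, those with tag counts nearest to HNF4A P2 over the 4 libraries were CEP57L1 and SESN1, which share 1 region (23.3, 43.7, 67.0 and 56.1, Euclidean distance 0.0524 on the log2 scale), and TTC21B (23.8, 45, 68.5 and 56.1, distance 0.1092).

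In base composition the 41 member regions together had a median of 57.3% G and C in their central 300 bp, and 8 CpG. Over 78220 regions on the primary chromosomes the medians were 52.3% and 5. The 12 promoter regions had 63.3%, while the 29 other member regions had 50.7% and 5 CpG. The 4 tazemetostat-only regions had 47.4%. The CEBP letters TTGCNNAA were present in 9 of 41 member regions (22.0%) against 13.4% of all, and ATNGATT (ONECUT) in 3 (7.32%) against 7.55%. TGTTTAC (FOXA) was in 3 (7.32%) against 8.23%, TTAATNATT (HNF1) in 2 (4.88%) against 1.87%, CAAAGTNCA (HNF4) in 1 (2.44%) against 4.18%, and CAAGGTCA (NR5A2) in 0 against 3.07%. The single HNF4 match, CAAAGTCCA at chr1:213989672-213989680, was in a PROX1 promoter region, next to a CEBP match on the other strand. The intronic PROX1 region at chr1:214027498-214027958 held ONECUT, FOXA and CEBP letters together. With so few regions these counts are a description of the letters present and were not tested.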

How the data were processed

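Accessibility was measured by ATAC-seq in 4 HepG2 libraries, grouped and numbered by their sample titles. According to the submitters' processing notes, Trim Galore 0.6.6 was used for trimming, Bowtie2 2.3.5.1 for alignment to hg38 and HOMER 4.11.1 for the peaks, which the authors called per library without pooling. Per the file headers, initial peaks of 300 bp were stitched into regions of variable length, and kept where tags exceeded the surrounding 10 kb at least 4-fold, at a false discovery rate of 0.001. No header mentions a shift of tags for the transposase.

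As deposited, the normalised tag count is a signal of tags in the peak per 10 M mapped tags. The deposited ratio used here is each peak's fold over its local background. Region sizes served for tags per kilobase. The authors' score, p-value and clonal fold columns were not used. Tags per peak were obtained as the tag count times mapped tags; all were within 0.25 of a whole number. The lowest tag counts listed were 6.4, 5.04, 5.04 and 4.89. Tags carry no molecular identifiers, so intervals cover counting error only. The local filter removed 77.0, 80.0, 62.7 and 70.9% of putative peaks.

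Peaks were merged across libraries at 1 bp of overlap. Genes and starts were taken from GENCODE release 44, the annotation of this re-analysis. Regions with exactly 1 peak per library were compared by limma 3.58.1 (R 4.3.3) after a log2 transform with a pseudocount of 1 (this understates changes of low values), over all 15383 such regions, with p-values adjusted by Benjamini-Hochberg and called under 0.05; sums over windows were compared by the exact permutation test. Same-numbered replicates did not deviate together (correlation -0.002 over the tested regions) and the number was not used as a block. The members, marker and network lists and motif letters were chosen with earlier results of these data known. The result of 1 marker gene is not reported here. By rule, values are given for every promoter region, every region of 1 group alone and the strongest other region of each gene; further regions named were chosen after their values were seen. Merging and testing were tested on simulated data. Alternatives were a 50% overlap, a local fold of at least 8, an equal number of peaks, other windows, each library left out, median centring, tags per kilobase, a pseudocount of 10, a filter at a mean of 20 and a replicate block.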

Additional observations from a re-analysis of the deposited data

How the results depend on the processing

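Of the single tested regions, 110 results under the alternatives kept their direction and side of the threshold, 29 kept the direction but no longer passed, 4 newly passed and 8 reversed. All 8 reversals were under median centring, which removes the general shift: HNF4A -0.54 (15124 bp from P2), -0.062 (chr20:44411066-44411707) and -0.20 (chr20:44433976-44434633), the FOXA1 promoter -0.17, the FOXA3 promoter -0.49, the NR5A2 intron -0.35, and the PROX1 introns -0.25 and -0.29. The median log2 change then was -0.1153 and 0 regions were called higher, and per kilobase 2 were. With the replicate block 5 of the 6 calls held, without HNF4A ahead of P1, and the differences of the summed tag count and peaks stayed at 566 and 15.

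With a local fold of at least 8 there were 2 tazemetostat-only regions, an NR5A2 intron and the FOXA3 promoter. The control peaks of the latter fell under the filter. There were 0 shared regions, 1 control-only region (PROX1 downstream) and none left to test. That PROX1 region was called in all 4 libraries without the filter, and its tazemetostat folds of 5.67 and 5.27 fell under it. With an equal number of peaks 1 region was tazemetostat-only, and with 50 kb on either side 8. Leaving out 1 library gave 6 to 14 tazemetostat-only regions, 0 to 9 regions called higher and a median log2 change of 0.4752 to 0.9393 (0.4893 to 0.8101 over the same 14 regions), since 19 regions were tested without control 1 and 16 without control 2. With 1 library left in a group, limma takes its spread from the other group. The cause was not tested. The planned count models (edgeR, DESeq2) were not run. With 2 libraries a group no permutation p can pass 0.05, and a position without a peak has no value.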
